A study of Mus musculus with 15 samples.

Results

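The genes examined here encode the receptor for gonadotropin-releasing hormone (GnRH) and 7 proteins of the signalling chain behind it, measured by RNA-seq of whole mouse pituitary glands. The 8 members were the rows of the count table whose symbol was Gnrhr, Gnaq, Gna11, Plcb1, Prkca, Prkcd, Rasgrf1 or Mapk3, out of 55523 rows, and each symbol was held by 1 row. All mice carried at least 1 chromosome without the pituitary enhancer (PE) of Nr5a1, which encodes NR5A1 (SF-1), a nuclear receptor of pituitary gonadotropes. Heterozygous deletion mice (PE+/-) were the controls, and homozygous deletion mice (PE-/-) lacked the enhancer on both chromosomes. Males gave 4 PE+/- and 4 PE-/- libraries and females 4 PE+/- and 3 PE-/- libraries, with 12982794 to 30238443 estimated counts per library. The deletion was introduced into fertilized eggs to set up a mouse line, so cells outside the pituitary carried it too. In fetal testes the paper saw no clear change of NR5A1 staining. It reported that PE-/- mice of both sexes were infertile and that adult PE-/- testes held less testosterone. What the state of the gonads adds to the genotype differences was not tested. No age is stated for these glands, nor whether 1 library stands for 1 animal, and p-values therefore measure the spread between libraries.

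GnRH is released by hypothalamic neurons and binds its receptor on gonadotropes, the pituitary cells that secrete luteinizing hormone and follicle-stimulating hormone. The receptor acts mainly through alpha subunits of the Gq class, which switch on phospholipase C-beta. The products of this enzyme release calcium and activate protein kinase C, and the signal then runs through Ras exchange factors and MAP kinases to the genes of the gonadotropin subunits. Most links of this chain are used by nearly every cell, whereas the receptor is largely particular to gonadotropes.

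Gnrhr and Rasgrf1 were lower in PE-/- than in PE+/- glands of both sexes, and the other 6 genes did not pass the test in either sex. Gnrhr was left at 3.70% of its control level in males and 7.17% in females, and Rasgrf1 at 20.9% and 13.4%. The group means of the G protein genes Gnaq and Gna11 in PE-/- glands were between 93.9% and 103% of the control means in both sexes. Single PE-/- libraries of Gnaq ran from 79.9% to 110% in males and from 83.9% to 121% in females. These are levels of the whole gland, and the level within gonadotropes was not measured. Thus 2 of 8 members passed an adjusted p of 0.05 in males, where 0.132% of 17392 tested genes did, and 2 of 8 in females, where 1.05% of 18085 did (edgeR quasi-likelihood F test, adjusted over all tested genes). With the libraries of the genotypes not overlapping in CPM (counts scaled to the library size after TMM), 2 members were lower and 1 was higher in each sex, against 2.02% lower and 2.54% higher of all tested genes in males and 8.95% lower and 9.64% higher in females. The single higher member was Plcb1 in males and Prkca in females. The members were chosen with earlier results of these data known, so these counts only describe them.

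**Figure D1:**
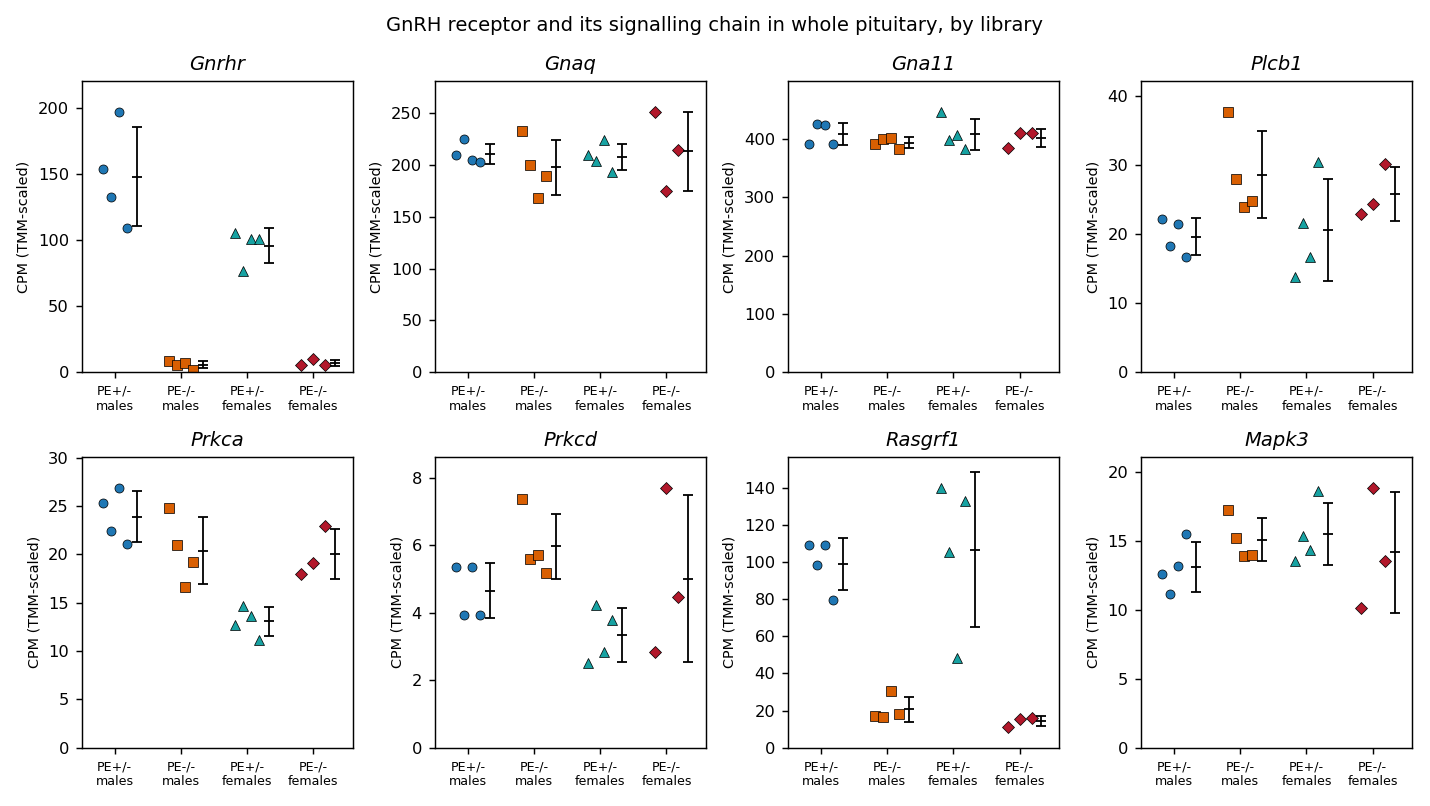
CPM (TMM-scaled, vertical axis from 0, each gene on its own scale) of the 8 members in every library of the 4 groups. Points are libraries, and the bar beside each group is the mean ± SD (n = 4, or 3 in PE-/- females). Gnrhr and Rasgrf1 lay lower in all 7 PE-/- libraries than in any PE+/- library, and Gnaq and Gna11 overlapped in all 4 groups.

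The labels were checked with the targeted gene. The mean of Nr5a1 in males was 50.2 ± 20.4 CPM with 1 deleted copy of the enhancer and 0.347 ± 0.303 CPM with both deleted (SD, n = 4 each). The corresponding means of females were 38.7 ± 5.12 CPM (n = 4) and 0.723 ± 0.151 CPM (n = 3). Every PE-/- library was under every PE+/- library, while the labels themselves give the genotype and not the level of Nr5a1. The PE-/- males held 6, 9, 0 and 13 estimated counts of Nr5a1 and the PE-/- females 10, 29 and 15, so that 3 of 4 and 1 of 3 were under 12 counts (3 fragments), the floor used here, and the fitted differences depend on very few reads. On the log2 scale the difference in males was -7.19 (edgeR adjusted p = 0.0117, and 0.0682 or 0.0696 without replicate 1 or 2 of PE-/-, at -7.14 and -7.20, within a range of -7.80 to -6.78 over the libraries left out) and that in females -5.72 (edgeR adjusted p = 0.000253). On a principal component analysis the first component, which held 14.4% of the variance, set the PE+/- females apart from the other groups, with scores of 52.8 to 95.8 against -43.0 to -5.68. No pair of replicates was alike within counting noise, with a chi-square of 17.9 to 57.8 per degree of freedom.

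The receptor gene itself showed the widest difference among the members. Gnrhr (ENSMUSG00000029255; chromosome 5, 86180754 to 86197901, minus strand, mm10) had 154, 132, 197 and 109 CPM in PE+/- males and, in PE-/- males, 8.13, 5.28, 6.60 and 1.88 CPM, replicates 1 to 4 in order. It had 106, 76.2, 101 and 100 CPM in PE+/- females and 5.37, 9.67 and 5.56 CPM in PE-/- females. All 7 PE-/- libraries lay under 10 CPM and all 8 PE+/- libraries above 76 CPM, so the genotypes were far from overlapping. The lowest library, replicate 4 of the PE-/- males, still held 33 estimated counts, above the floor of 12 counts. The log2 fold change was -4.75 in males (SE 0.45, 95% confidence interval -5.79 to -3.72, edgeR adjusted p = 0.00991) and -3.80 in females (SE 0.29, interval -4.47 to -3.13, edgeR adjusted p = 0.00633). Without replicate 2 of the PE-/- males the male value was -4.74 with an adjusted p of 0.0532, past the threshold no longer, and the female value remained past it whichever library was left out. Whole glands were sequenced, so fewer gonadotropes and less RNA per gonadotrope cannot be told apart for this gene or for any other result given here.

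Because Gnrhr and Rasgrf1 moved together with Nr5a1, the 250 bases before their transcription starts were read from RefSeq (GRCm38.p6) and searched on both strands for AAGGTCA, the core of the sequence that NR5A1 is known to bind, and for AAGGNCA, which includes it and leaves 1 base free. Of the 8 members, 7 matched the promoter table, with 8 windows in all, Prkcd having 2, and Mapk3 was not matched. The exact site was in none of these windows and in 4.08% of all 32851 windows. The looser site was in the window of Gnrhr, at 226 to 220 and at 167 to 161 bases before the start, in no window of the other matched members, and in 17.5% of all windows. Both matches lay on the strand opposite to the gene and are shown in capitals. A match describes letters only and is not a binding measurement.
Gnrhr, chr5:86197902-86198151, minus strand: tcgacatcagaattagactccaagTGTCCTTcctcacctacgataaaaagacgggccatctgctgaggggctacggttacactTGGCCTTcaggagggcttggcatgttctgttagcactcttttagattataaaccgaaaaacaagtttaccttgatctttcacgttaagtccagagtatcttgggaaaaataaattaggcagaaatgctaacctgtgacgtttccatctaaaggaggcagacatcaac

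In the controls the receptor differed between the sexes in its libraries but not past the test. All 4 PE+/- females, at 76.2 to 106 CPM, lay under all 4 PE+/- males, at 109 to 197 CPM. The log2 fold change of females against males was -0.62 (SE 0.20, interval -1.09 to -0.16, edgeR adjusted p = 0.230, unadjusted p = 0.0143). Gnrhr and Prkca were the 2 members that were lower in females without overlap, where 4.43% of 17163 tested genes were. No member passed an adjusted p of 0.05 in this comparison, where 0.670% of tested genes did, and an unadjusted p under 0.05 was reached by 2 members, again Gnrhr and Prkca, and by 13.5% of all genes. In PE-/- glands Gnrhr had 6.87 ± 2.43 CPM in females (SD, n = 3) and 5.47 ± 2.67 CPM in males (n = 4), with overlapping libraries and a log2 fold change of 0.33 (interval -0.77 to 1.43). The interaction of genotype and sex was 0.96 on the log2 scale (interval -0.14 to 2.05, edgeR adjusted p = 0.569), so a difference of the genotype effect between males and females was not shown.

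The genes for the Gq-class alpha subunits overlapped across the 4 groups. Gnaq (chromosome 19, 16132831 to 16387463, plus strand), the subunit through which the receptor is best known to signal, had 210, 225, 205 and 203 CPM in PE+/- males and, in PE-/- males, 233, 200, 168 and 190 CPM. It had 210, 204, 224 and 194 CPM in PE+/- females and 251, 175 and 215 CPM in PE-/- females. The libraries overlapped in both sexes, with a wider spread in PE-/- glands, where the CV was 13.5% in males and 18.0% in females against 4.72% and 6.14% in controls. Gna11 (chromosome 10, 81528724 to 81545190, minus strand), its close relative, ran from 382 to 446 CPM over all 15 libraries. The spread of Gna11 went the other way, with a CV of 2.32% in PE-/- males and 3.68% in PE-/- females against 4.79% and 6.66% in controls. Differences in spread were not tested. The log2 fold changes by genotype were -0.09 (interval -0.36 to 0.18) and 0.03 (-0.32 to 0.38) for Gnaq, and -0.05 (-0.25 to 0.15) and -0.03 (-0.29 to 0.23) for Gna11, in males and females. None of these 4 passed the test, and the intervals leave room for changes of up to 0.38 in size.

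The balance of the subunits was also compared within libraries, where scaling between libraries plays no part. The ratio of Gna11 to Gnaq counts (2 added to each) averaged 1.94 in PE+/- males and 2.01 in PE-/- males, and 1.96 in PE+/- females and 1.90 in PE-/- females. The libraries of the genotypes overlapped in both sexes. The difference in log2 ratio was 0.05 in males (two-sided exact permutation test, p = 0.657) and -0.04 in females (exact p = 0.80), and both adjusted values over the 4 ratio tests made were 0.80.

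Plcb1 (chromosome 2, 134786067 to 135475258, plus strand), which encodes phospholipase C-beta 1, the enzyme that Gq subunits activate, stood higher in PE-/- males without passing the test. Its values were 22.2, 18.3, 21.5 and 16.6 CPM in PE+/- males and, in PE-/- males, 37.6, 27.9, 24.0 and 24.7 CPM. All 4 PE-/- males were above all 4 PE+/- males. It differed by 0.54 on the log2 scale (SE 0.18, interval 0.12 to 0.96), with an unadjusted p of 0.0170 and an edgeR adjusted p of 0.641, and 6.14% of all tested genes had an unadjusted p under 0.05. In females the libraries overlapped, at 13.7, 21.5, 16.6 and 30.5 CPM in PE+/- and 22.8, 24.3 and 30.2 CPM in PE-/-, and the log2 fold change was 0.32 (interval -0.34 to 0.97, edgeR adjusted p = 0.664). An annotated antisense gene, 9630028H03Rik, shares 178 bases of exon with Plcb1 and had 0 counts in all libraries together.

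Of the protein kinase C genes, Prkca separated the groups by sex in the controls and by genotype in females. Prkca (chromosome 11, 107933387 to 108343928, minus strand) encodes the calcium-dependent alpha isoform. It had 25.3, 22.4, 26.9 and 21.1 CPM in PE+/- males, and 12.7, 14.7, 13.7 and 11.2 CPM in PE+/- females. The 3 PE-/- females had 18.0, 19.1 and 22.9 CPM, and the PE-/- males 24.8, 20.9, 16.6 and 19.2 CPM. The PE+/- females thus lay under every library of the 3 other groups, which overlapped one another. The same group stood apart on the first principal component of all genes, and the part of that in the values of Prkca was not tested.

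For Prkca the log2 fold change in PE+/- females against PE+/- males was -0.87 (SE 0.15, interval -1.22 to -0.52, edgeR adjusted p = 0.0518), just short of the threshold. DESeq2 (adjusted p = 2.55e-05), the division of counts by 4, the summing of rows per locus and a single fit on all 15 libraries each put it past the threshold. In PE-/- glands the corresponding value was -0.02 (interval -0.43 to 0.38). By genotype it was 0.61 in females (SE 0.16, interval 0.23 to 0.99, edgeR adjusted p = 0.129, unadjusted p = 0.00674), where 16.1% of tested genes had an unadjusted p under 0.05, and -0.23 in males (interval -0.59 to 0.13, edgeR adjusted p = 0.970). The interaction of genotype and sex was 0.84 (SE 0.22, interval 0.37 to 1.32, edgeR adjusted p = 0.173, unadjusted p = 0.00189). Prkca was the only member with an unadjusted p under 0.05 for the interaction, which 10.1% of 19286 tested genes had, and 0 members passed the adjusted threshold, against 0.161% of genes. DESeq2 called both the female genotype difference (adjusted p = 0.0260) and the interaction (adjusted p = 0.0254) of this gene. The apolipoprotein gene Apoh shares 30 bases of exon with Prkca and had 17 counts in all libraries together.

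Prkcd (chromosome 14, 30595354 to 30626210, minus strand), the gene of the calcium-independent delta isoform, had the lowest CPM per kilobase of exon among the members in all 4 groups, while in CPM the mean of Gnrhr was lower in PE-/- males. Prkcd ran from 3.94 to 5.36 CPM in PE+/- males, from 5.17 to 7.38 CPM in PE-/- males, from 2.499 to 4.23 CPM in PE+/- females and from 2.84 to 7.70 CPM in PE-/- females. The genotypes overlapped in both sexes, and the highest and the lowest PE-/- females differed by more than the group means did. The log2 fold change was 0.36 in males (interval -0.10 to 0.82) and 0.58 in females (interval -0.30 to 1.46), neither past the test (edgeR adjusted p = 0.914 and 0.519).

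Rasgrf1 was the second member that fell. It encodes an exchange factor that loads Ras with GTP in response to calcium and is best known from neurons. Rasgrf1 (chromosome 9, 89909908 to 90026977, plus strand) had 109, 98.3, 109 and 79.3 CPM in PE+/- males and, in PE-/- males, 17.2, 16.6, 30.5 and 18.3 CPM. It had 140, 106, 48.2 and 133 CPM in PE+/- females and 11.4, 15.3 and 16.2 CPM in PE-/- females. Every PE-/- library was under every PE+/- library of its sex, although replicate 3 of the PE+/- females, at 48.2 CPM, was well under the other 3 of its group, and replicate 3 of the PE-/- males, at 30.5 CPM, was above the others of its own.

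The log2 fold change of Rasgrf1 was -2.26 in males (SE 0.23, interval -2.79 to -1.73, edgeR adjusted p = 0.0117) and -2.91 in females (SE 0.40, interval -3.84 to -1.98, edgeR adjusted p = 0.0291). In males it was -2.17 with an adjusted p of 0.0532 without replicate 2 of the PE-/- group. In females the call was lost without replicate 2 (-2.92, adjusted p = 0.0823) or 4 (-2.80, 0.0625) of PE+/- and without replicate 1 (-2.76, 0.115), 2 (-2.97, 0.121) or 3 (-3.00, 0.126) of PE-/-, while the size stayed near 3 on the log2 scale. The interaction was -0.64 (interval -1.57 to 0.29, edgeR adjusted p = 0.691). Between the sexes Rasgrf1 did not pass in controls, with a log2 fold change of 0.11 (interval -0.60 to 0.82), and in PE-/- glands it was the 1 member lower in females without overlap, where 2.71% of genes were, at -0.53 (interval -1.14 to 0.08, edgeR adjusted p = 0.997). No member passed in that last comparison by edgeR or by DESeq2, and none had an unadjusted p under 0.05, where 0.0494% of 18217 genes passed and 3.37% had such a p. The 250 bases before its RefSeq start, which lies upstream of the start in the GENCODE annotation, are given to set beside those of Gnrhr and hold neither form of the site.
Rasgrf1, chr9:89909525-89909774, plus strand: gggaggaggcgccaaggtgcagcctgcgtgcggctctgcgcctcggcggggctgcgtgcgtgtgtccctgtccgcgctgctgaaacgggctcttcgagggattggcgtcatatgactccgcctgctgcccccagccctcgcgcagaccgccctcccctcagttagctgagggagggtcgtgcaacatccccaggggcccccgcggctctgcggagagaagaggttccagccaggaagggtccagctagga

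Mapk3 (chromosome 7, 126759601 to 126765819, plus strand), which encodes the kinase ERK1 near the end of the chain, was not shown to differ by genotype. It ran from 11.1 to 15.5 CPM in PE+/- males, 13.9 to 17.3 in PE-/- males, 13.6 to 18.7 in PE+/- females and 10.1 to 18.9 in PE-/- females. All groups overlapped. The log2 fold change was 0.20 in males (interval -0.14 to 0.54) and -0.13 in females (interval -0.69 to 0.43), with edgeR adjusted p-values of 0.972 and 0.862.

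**Figure D2:**
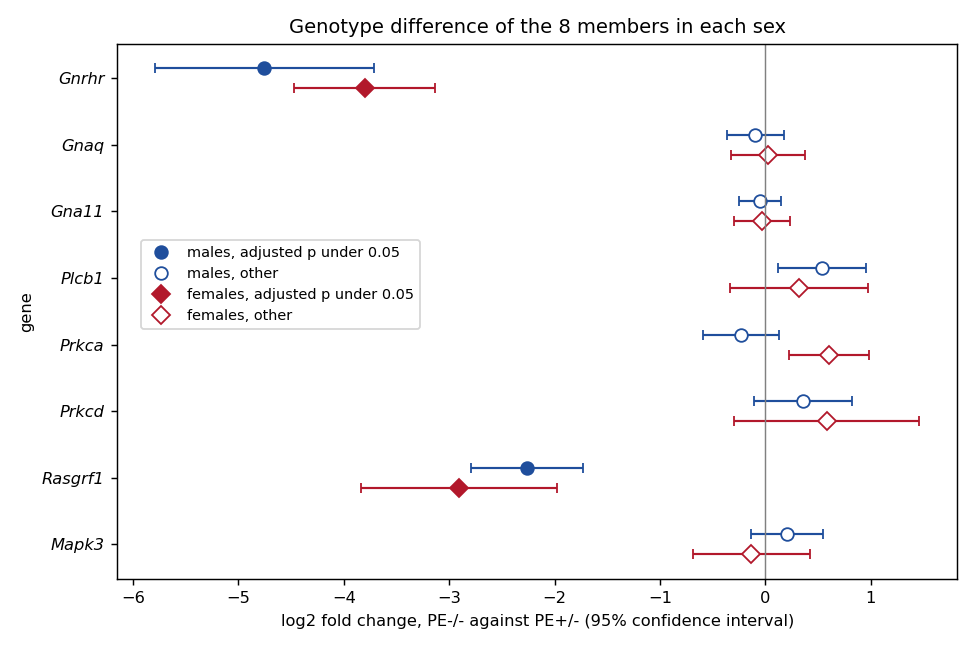
Log2 fold change of PE-/- against PE+/- (horizontal axis) with its 95% confidence interval for each member in males (circles) and females (diamonds), filled where the edgeR adjusted p was under 0.05. Gnrhr and Rasgrf1 are the filled points, at -4.75 and -2.26 in males and -3.80 and -2.91 in females, and the other 6 lie between -0.23 and 0.61.

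Gnrhr and Rasgrf1 were next compared within each library, which asks whether both kept a like share of their control level. In PE+/- males there were 0.709, 0.742, 0.554 and 0.730 Rasgrf1 counts for each Gnrhr count (2 added to both), and in PE-/- males 2.10, 3.11, 4.57 and 9.23. In PE+/- females the ratios were 1.32, 1.38, 0.479 and 1.32, and in PE-/- females 2.09, 1.57 and 2.88. In each sex all PE-/- libraries were above all PE+/- libraries, and Rasgrf1 had more counts than Gnrhr in every PE-/- library. These counts take no account of gene length, and per kilobase of merged exons Gnrhr was above Rasgrf1 in PE-/- females, at 2.15 against 1.29 CPM per kb, without overlap. Per kilobase of the longest annotated transcript they were at 3.03 and 2.99 CPM per kb, with overlap, so this order depends on the length used. The log2 ratio was higher in PE-/- by 2.58 in males (two-sided exact permutation p = 0.0286, the smallest that 4 against 4 libraries allow) and by 1.03 in females (exact p = 0.0571, the smallest that 4 against 3 allow). After adjustment over the 4 ratio tests both exact p-values were 0.114. With so few libraries no outcome of the 4 tests could have passed 0.05 after adjustment, so the adjusted values decide nothing.

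**Figure D3:**
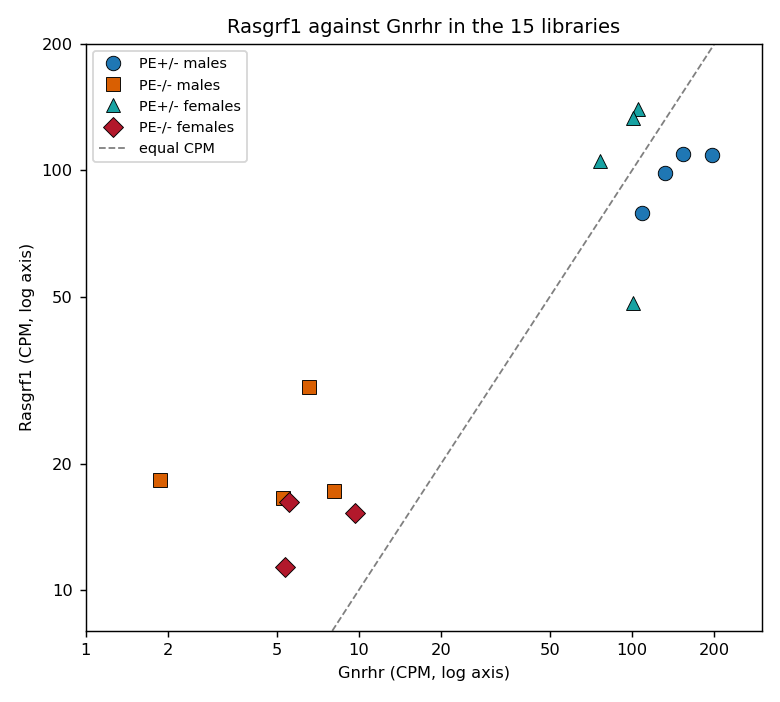
Rasgrf1 (vertical axis) against Gnrhr (horizontal axis) in CPM on log axes, with 1 point for each of the 15 libraries and a dashed line of equal CPM. The PE-/- libraries form a separate set at the lower left, at 1.88 to 9.67 CPM of Gnrhr and 11.4 to 30.5 CPM of Rasgrf1, all above the line. The PE+/- males lie under the line and 3 of the 4 PE+/- females above it.

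Levels were compared between genes per kilobase of merged annotated exons. In PE+/- males the order of mean CPM per kb was Gna11 (99.7 ± 4.77), Gnrhr (46.3 ± 11.7), Gnaq (34.1 ± 1.61), Rasgrf1 (8.94 ± 1.27), Mapk3 (5.81 ± 0.807), Prkca (2.66 ± 0.295), Plcb1 (1.77 ± 0.237) and Prkcd (0.838 ± 0.148; SD, n = 4). Only Gnrhr and Gnaq overlapped among the neighbours in this order. In PE+/- females the receptor had 29.9 ± 4.14 CPM per kb (n = 4), and it overlapped with Gnaq at 33.6 ± 2.07, as did Rasgrf1 with Mapk3 and Plcb1 with Prkca. In PE-/- males Gnrhr was next to last, at 1.71 ± 0.834 CPM per kb (n = 4), and Plcb1, Prkca, Rasgrf1, Gnrhr and Prkcd each overlapped with the next. In PE-/- females Gnrhr had 2.15 ± 0.761 CPM per kb (n = 3) and Rasgrf1 1.29 ± 0.232, and the overlapping neighbours were Plcb1 and Prkca, Prkca and Gnrhr, and Rasgrf1 and Prkcd. Per kilobase of the longest annotated transcript 5 members changed rank. Rasgrf1 had rank 4 in PE-/- males instead of 6 and rank 6 in PE-/- females instead of 7, and Gnrhr had rank 2 in PE+/- females instead of 3, changing places with Gnaq, and rank 5 in PE-/- females instead of 6. Prkca had rank 6 in PE-/- males and 7 in PE-/- females instead of 5 in both, and Plcb1 rank 5 in PE-/- males instead of 4. The places of these members depend on the length used, while those of Gna11, Mapk3 and Prkcd were the same by both lengths in all 4 groups.

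**Figure D4:**
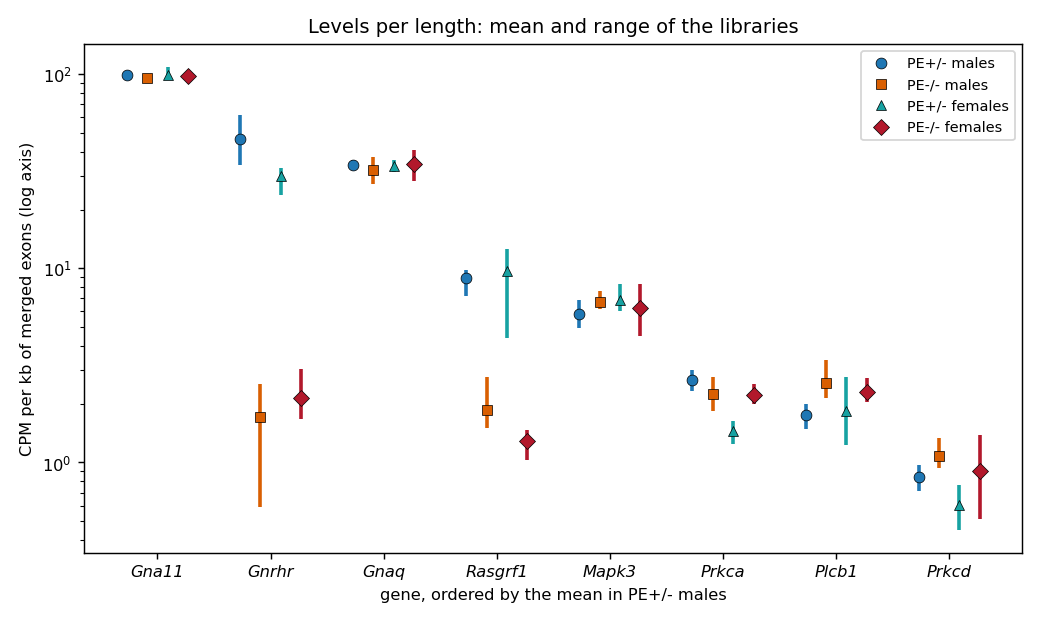
CPM per kb of merged exons (log axis) of the 8 members, ordered by their mean in PE+/- males. Symbols are group means and vertical lines run from the lowest to the highest library. Gna11 stays near 100 in all 4 groups, and the receptor falls from 46.3 to 1.71 CPM per kb in males. That level is near those of the protein kinase C genes and Plcb1 and under that of Mapk3, at 6.69 CPM per kb in PE-/- males.

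The remainder of the pathway was described with 12 lists of 117 genes, the members included. Besides the members, 103 listed genes were tested in males, of which 0 were higher and 1 was lower, and 102 in females, of which 1 was higher and 1 was lower, against 0.0460% higher and 0.0862% lower of all genes in males and 0.348% and 0.697% in females. The lower gene was in both sexes Lhb, the beta subunit of luteinizing hormone and one of the endpoints of the chain. PE+/- males had 425 ± 120 CPM and PE-/- males 13.02 ± 6.65 CPM (SD, n = 4 each), which on the log2 scale differ by -5.03 (SE 0.55, adjusted p from edgeR 0.0132). PE+/- females had 205 ± 30.8 CPM (n = 4) and PE-/- females 16.1 ± 6.205 CPM (n = 3), which on the log2 scale differ by -3.67 (SE 0.30, adjusted p from edgeR 0.00698). In males Lhb was no longer past the threshold without replicate 4 of PE+/- (-5.11, adjusted p = 0.0552) or without replicate 1 (-5.11, 0.0735), 2 (-5.19, 0.0647) or 3 (-5.17, 0.0598) of PE-/-. The higher gene was Rasgrp1, another calcium-responsive Ras exchange factor, best known from lymphocytes. In females it had 8.28 to 11.3 CPM in PE+/- and 27.8 to 35.2 CPM in PE-/- libraries, without overlap, and rose by 1.67 on the log2 scale (SE 0.17, edgeR adjusted p = 0.0137). Without replicate 3 of the PE-/- females the value was 1.66 with an adjusted p of 0.0651. In males it had 9.69 to 22.7 CPM in PE+/- and 16.8 to 53.3 CPM in PE-/- libraries, with overlap, and its log2 fold change of 1.14 did not pass (edgeR adjusted p = 0.612). The interaction for Rasgrp1 was 0.54 (interval -0.43 to 1.504), and no difference between males and females was shown. Of the 3 gonadotropin subunit genes only Lhb passed, and the others were at -5.22 and -3.34 (Fshb, edgeR adjusted p = 0.0506 and 0.125) and at -0.70 and -0.37 (Cga, adjusted p = 0.970 and 0.701), in males and females. The male value of Fshb was just short of the threshold and passed it in 6 of 9 other settings, with adjusted p-values of 0.0496 with no filter, 0.0483 with a minimum of 1 CPM, 0.0474 with rows summed per locus, 0.0348 with counts divided by 4, 0.0226 in 1 fit on all libraries and 7.54e-16 by DESeq2, and also without replicate 4 of PE-/- males (-4.85, 0.00256). The female value was -2.17 without replicate 4 of PE+/-, and DESeq2 called the female difference as well (adjusted p = 0.000307).

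By list, 0 of 8 tested genes of G protein alpha subunits, 0 of 6 phospholipases, 0 of 12 calcium signalling genes, 0 of 11 protein kinase C and D genes, 0 of 11 of the cyclic AMP arm, 0 of 20 of the MAP kinase cascade, 0 of 6 tyrosine kinases and shedding enzymes, 0 of 9 negative regulators and 0 of 12 downstream transcription factors passed an edgeR adjusted p of 0.05 in either sex. An unadjusted p under 0.05 was reached by 11 of the 103 genes in males and 24 of the 102 in females, beside 6.14% and 16.1% of all tested genes. In females 5 of the 6 genes of tyrosine kinases and shedding were among them, all with positive log2 fold changes and a list median of 0.66. The calcium list had 6 of 12 among them in females, with log2 fold changes from -0.95 to 1.31 over the whole list and a median of 0.05. Over all lists without the members the median log2 fold change was -0.04 in males and 0.17 in females, beside 0.0027 and 0.0017 for all tested genes. The ligand gene Gnrh1, which is made in the hypothalamus, did not reach the minimum count to be tested. The counts of 0 belong to the edgeR test. By DESeq2, which called 206 genes of the whole table in males and 1431 in females, 2 of the 103 other listed genes were lower in males (Lhb and Fshb), and 11 were higher and 5 lower of the 102 in females.

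**Figure D5:**
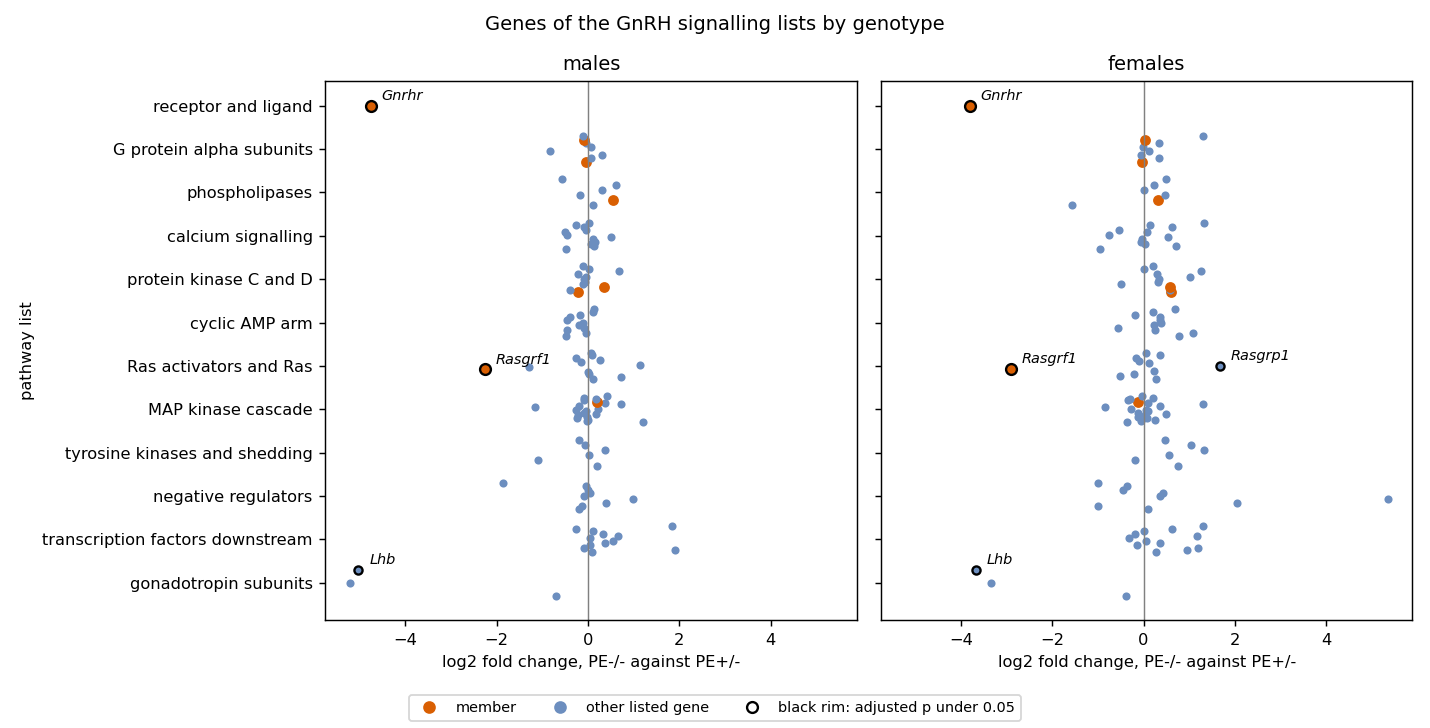
Log2 fold change of PE-/- against PE+/- (horizontal axis) of each tested gene in the 12 pathway lists (rows), in males and in females. Orange points are members, blue points other listed genes, and a black rim marks an edgeR adjusted p under 0.05. Gnrhr, Rasgrf1 and Lhb carry the rim on the lower side in both panels and Rasgrp1 on the higher side in females. The point farthest to the right in females is the phosphatase gene Dusp4, named for its place in the plot, which did not pass (edgeR adjusted p = 0.0783).

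The genes most like the falling members were sought by the root mean square difference, over the 15 libraries, of log2 CPM centred on the controls of each sex, among 16044 rows. Nearest to Gnrhr was Lhb, at a difference of 0.37, followed by Fshb at 0.99 and Tgfbr3l, a co-receptor found in gonadotropes, at 1.01. The libraries that were lowest in Gnrhr and in Lhb coincided, since replicate 4 of the PE-/- males had 1.88 CPM of Gnrhr and 3.13 CPM of Lhb. Nearest to Rasgrf1 were Slc5a8, a transporter of short monocarboxylates, at 0.70, Sult5a1, a sulfotransferase, at 0.75 and Zfp46, a zinc finger gene, at 0.85. None of the 3 nearest to one gene was among the 3 nearest to the other. The distance includes the size of the genotype difference, which was larger for Gnrhr than for Rasgrf1 in both sexes. Separate neighbours are therefore no further result. These distances describe likeness over libraries that share genotype groups.

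Genes lying close to the falling members were looked at for a change of the whole locus. Within 500 kb of Gnrhr 4 genes were tested in males and 3 in females, and none passed an edgeR adjusted p of 0.05. Uba6, 7.95 kb away, was the 1 with an unadjusted p under 0.05, in males, at 11.5 ± 1.99 CPM in PE-/- and 19.5 ± 4.43 CPM in PE+/- (SD, n = 4 each; log2 fold change -0.76, edgeR adjusted p = 0.394). Around Rasgrf1 7 genes were tested in each sex, and 0 passed in males and 1 in females. The latter was Tmed3, 205 kb away, which was lower at 565 ± 45.8 CPM in PE-/- (n = 3) against 1055 ± 113 CPM in PE+/- (n = 4), a log2 fold change of -0.91 (edgeR adjusted p = 0.0314). The size held, at -0.96 to -0.84, whichever library was left out, but without any 1 of 6 of the 7 libraries, all but replicate 1 of PE+/-, the adjusted p was 0.0584 to 0.146. Tbc1d2b, 175 kb from Rasgrf1 and thus nearer than Tmed3, had an unadjusted p of 0.0211 in females in the other direction, at 11.6 ± 1.71 CPM in PE-/- (n = 3) and 7.21 ± 1.77 CPM in PE+/- (n = 4), a log2 fold change of 0.68 that did not pass (edgeR adjusted p = 0.209). These 3 genes were named after their values were seen.

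Part of the gonadotrope marker list was lower in PE-/- glands. The 9 gonadotrope markers include Gnrhr itself and Nr5a1, whose enhancer was deleted. They also include Tgfbr3l and, from females, Nr0b1, which the paper reported as dependent on NR5A1 in these glands. By qRT-PCR of the pituitary the paper also reported less Gnrhr, Lhb, Fshb and Cga in PE-/- than in control mice of both sexes. The list was therefore not independent of these data, and its counts only describe it. Of the 9 markers, 4 were lower in males (Gnrhr, Lhb, Nr5a1 and Nr0b1) and 5 in females (the same and Tgfbr3l), where 0.0862% and 0.697% of all tested genes were lower. The other 5 and 4 did not pass, log2 fold changes over the list ran from -7.19 to -0.43 in males and from -5.72 to 0.73 in females, and none of the list was at 0 throughout a group. The summed level of the list was 9350 to 17056 CPM in PE+/- males and 1394 to 6870 CPM in PE-/- males, and 5995 to 8919 CPM in PE+/- females and 2303 to 7001 CPM in PE-/- females, most of it from Cga, which thyrotropes also make. Among the lists for other cells 1 gene passed, Prl of the lactotropes in females, with a log2 fold change of -2.58. The 4 lactotrope markers summed to 22101 to 35558 CPM in PE+/- and 4616 to 5785 CPM in PE-/- females, without overlap, and to 12509 to 31334 and 4890 to 41410 CPM in males, with overlap. The 5 somatotrope markers summed to 135423 to 188595 CPM in PE+/- males and 66490 to 131263 CPM in PE-/- males, without overlap, and to 60965 to 106201 CPM in PE+/- females and 87536 to 176151 CPM in PE-/- females, with overlap and the higher end in PE-/-. Each sum is weighted by the levels of its markers, so it follows the most abundant of them most closely. The somatotrope markers had a median log2 fold change of -0.12 in males and 0.37 in females, with 0 of 5 past the test in each. In the 8 other lists, for corticotropes, melanotropes, thyrotropes, erythroid, immune, endothelial, posterior lobe and stem or folliculostellate cells, 0 of 39 markers tested in males and 0 of 38 in females passed the edgeR test. An unadjusted edgeR p under 0.05 was reached by 3 and 8 of them, beside 6.14% and 16.1% of all tested genes. In 1 of these lists a marker was at 0 throughout a group, Nkx2-1 of the posterior lobe in PE-/- females. The part of these shifts in the values of the members was not tested.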

How the data were processed

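Whole pituitary glands gave 15 RNA-seq libraries, grouped by the labels. Per the methods, the authors used cutadapt for trimming, STAR for mapping to mm10 and featureCounts for counting. The deposited values were estimated counts per gene with no normalization, named and spaced like the export of an assembly, a step not given in the sources used here. About 4 counts stood for 1 fragment, since the values 5, 9 and 13 were 1.52, 1.16 and 1.08 times as frequent as their neighbours. Strand use is unknown, and the floor of 12 counts covers counting error only.

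Rows kept by filterByExpr (minimum count 10, minimum total 15) were scaled by TMM and tested, two-sided, by the quasi-likelihood F test of edgeR 4.0.16 (R 4.3.3), with Benjamini-Hochberg adjustment over all rows and a threshold of 0.05. The 5 comparisons were genotype within each sex, sex within each genotype, and their interaction. The standard error was the size of the log2 fold change divided by the square root of F. Ratios used exact permutation tests (scipy 1.17.1). Coordinates and exons came from GENCODE M21 (mm10). 0 columns were left unmatched.

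The members and the lists were chosen with earlier results of these data known. Named were the members, Nr5a1, pathway genes past the threshold and the 3 genes nearest to Gnrhr and to Rasgrf1 (mean of at least 20 counts). Prl, Nr0b1, Nkx2-1, Cga, Dusp4, Uba6, Tbc1d2b and Tmed3 were named after their values were seen. Markers of cell types came from 11 lists. Tested on simulated data, edgeR recovered 4.05%, 66.2% and 93.6% of genes changed by 1, 2 and 4 on the log2 scale in males (16839 genes) and 2.70%, 46.5% and 79.2% in females (17407 genes). The alternatives were DESeq2 1.42.0, its size factors, library totals, other filters, counts divided by 4, rows summed per locus, other pseudocounts, the replicate number as a block, a single fit of all libraries and leaving out each library.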

Additional observations from a re-analysis of the deposited data

Results flagged for a closer look

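A sample was looked for that stood far from the others of its group, by Dixon's criterion at 95%, in groups of 4 libraries. It was met in 8 of 57 groups tested, where chance gives about 1 in 20, and the genes are not independent of each other.

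Of the members, Rasgrf1 met it in PE-/- males, where replicate 3 had 30.5 CPM and the others 16.6 to 18.3 CPM. The log2 ratio of Rasgrf1 to Gnrhr met it in PE+/- males, where replicate 3 was at -0.85 and the others at -0.50 to -0.43, and in PE+/- females, where replicate 3 was at -1.06 and the others at 0.40 to 0.47. In that female library Rasgrf1 was the low gene, at 48.2 CPM, while Gnrhr, at 101 CPM, was within the range of its group.

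Among the genes set beside the members, replicate 4 of the PE-/- males stood low for Lhb, at 3.13 CPM against 15.2 to 17.1, and for Cga, at 1344 CPM against 6370 to 6717, and it was also the lowest library for Gnrhr, at 1.88 CPM. Fshb stood high in replicate 4 of the PE+/- females, at 1752 CPM against 163 to 359. Tgfbr3l stood high in replicate 3 of the PE+/- males, at 297 CPM against 30.2 to 62.9. Zfp46 stood high in replicate 2 of the PE-/- males, at 34.3 CPM against 3.92 to 5.002. No genotype difference of a member was shown to differ between the sexes by the edgeR interaction.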

How the results depend on the processing

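Of 352 values of the log2 fold change of a member under other settings, 334 kept their direction and their side of the threshold, as did 326 of 360 with a library left out. The replicate number was not shown to pair the libraries, since the deviations of same-numbered libraries from their group means correlated at -0.08 to 0.13 over 21 pairs. With it as a replicate block, 0 members passed in each genotype comparison, and the values were -4.89 (adjusted p = 0.0844) and -3.83 (0.207) for Gnrhr and -2.30 (0.144) and -2.67 (0.229) for Rasgrf1, in males and females. The block also took the whole table to 0 calls in males, 1 in females, 0 and 0 between the sexes of PE+/- and PE-/- and 11 for the interaction. Between the sexes of PE+/-, 1 member (Prkca) passed in place of 0 with DESeq2, counts divided by 4, rows summed per locus and 1 fit on all libraries, and 1 (Prkca) with DESeq2 for the interaction. The whole table had 23, 189, 115, 9 and 31 calls in the 5 comparisons, and by DESeq2 206, 1431, 900, 41 and 392. One fit on all libraries gave 37 in males, 714 in females and 421 in PE+/-, no filter gave 123 in females and 66 in PE+/-, and leaving out a library gave 11 to 35, 29 to 244, 34 to 113, 7 to 27 and 7 to 71. With a library left out, 0 to 2 members passed in males and 1 to 2 in females, at -5.00 to -4.47 for Gnrhr and -2.51 to -2.17 for Rasgrf1 in males and -3.16 to -2.74 for Rasgrf1 in females. The male log2 ratio of Rasgrf1 to Gnrhr was then 2.19 to 2.90, where 4 against 3 cannot pass, and that of Gna11 to Gnaq was -0.035 to 0.13 in males and -0.20 to 0.11 in females.

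Direction changed only in comparisons in which the member concerned did not pass. Gna11 turned to 0.028 with library totals in males, to -0.0027, -0.0024, -0.0042 and -0.0015 with DESeq2, its size factors, no filter and 1 fit on all libraries in PE+/- by sex, and to -0.053 with library totals for the interaction. Gnaq turned to -0.022 with the block in females and to 0.050 with library totals in PE+/- by sex. Leaving out a library gave ranges on both sides of 0 by genotype in females for Gnaq (-0.10 to 0.15), Gna11 (-0.071 to 0.021) and Mapk3 (-0.40 to 0.065). It did so by sex in PE+/- for Gnaq (-0.049 to 0.014), Gna11 (-0.053 to 0.023), Plcb1 (-0.18 to 0.21) and Rasgrf1 (-0.059 to 0.36), and in PE-/- for Gnrhr (-0.0045 to 0.58), Gnaq (-0.021 to 0.24), Plcb1 (-0.27 to 0.013), Prkca (-0.13 to 0.082), Prkcd (-0.70 to 0.036) and Mapk3 (-0.35 to 0.11). For the interaction it did so for Gnaq (-0.0041 to 0.25), Gna11 (-0.010 to 0.090), Plcb1 (-0.35 to 0.020) and Prkcd (-0.23 to 0.50). The cause of these changes was not tested. The lowest library held 32 counts of Prkcd and 33 of Gnrhr, the smallest among the members, and what depth adds to their spread was not tested.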
